A study of Homo sapiens with 6 samples.

Results

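The genes described here are the small nucleolar RNA (snoRNA) host genes, whose symbols are SNHG and a number, together with GAS5, EPB41L4A-AS1 and a set of well-known long noncoding RNA genes. The members were chosen by symbol among rows with an Ensembl gene identifier, namely every symbol made of SNHG and digits, and GAS5, EPB41L4A-AS1, MALAT1, NEAT1, H19, MEG3, TUG1, NORAD, OIP5-AS1, DANCR, CYTOR, MIR22HG, MIR17HG and PVT1. The rule gave 42 genes of 60780 rows in the gene table, 28 numbered SNHG genes and 14 named genes. RNA sequencing was done on LX-2, an immortalised human hepatic stellate cell line, after 24 h of culture in medium conditioned by HCT116 colorectal cancer cells. In the Vector-CM group (n = 3) the producing cells carried an empty vector. In the FGFBP1-CM group (n = 3) they overexpressed FGFBP1, a secreted protein that frees fibroblast growth factors from the extracellular matrix (FGFBP1-CM, n = 3). Both groups were the same receiving line, the producing cells carried a stably introduced construct in both groups, and the labels do not say whether the 3 libraries of a group came from separate cultures, so the p-values measure only the spread between these libraries. FGFBP1 was overexpressed in the producing cells and not in the sequenced ones, so its own RNA gives no check of the labels. The comparison asks how the medium of FGFBP1-overexpressing tumour cells alters the stellate cell transcriptome.

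Most snoRNAs of vertebrates lie in introns and are cut from the spliced-out intron of a longer host transcript. Box C/D snoRNAs guide ribose methylation and box H/ACA snoRNAs guide pseudouridylation of ribosomal and spliceosomal RNA, and small Cajal body RNAs do the same in the Cajal body. The spliced exons of many noncoding hosts are short-lived in the cytoplasm, where nonsense-mediated decay removes them, and many hosts start with a run of pyrimidines that ties their RNA to growth signalling. Other members act as RNAs themselves. MALAT1 sits in nuclear speckles, NEAT1 is the scaffold of paraspeckles, NORAD binds Pumilio proteins in the cytoplasm and MEG3 is an imprinted RNA studied for its restraint of cell growth.

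The hosted RNAs show what these genes carry. In the RefSeq gene table, 30 of the 42 members contained 148 snoRNA or small Cajal body RNA genes, of which 83 lay in SNHG14 alone, all of them box C/D. The remaining 65 comprised 35 named box C/D genes, 23 named box H/ACA genes, 4 small Cajal body RNA genes and genes without such a symbol. GAS5 held 11 and SNHG1 held 9, while SNHG18, SNHG6 and EPB41L4A-AS1 held 1 each. Shown here are snoRNAs of hosts that the results turn on, from the GENCODE 29 transcripts on GRCh38. The capitals mark the C box core TGATGA and the D box CTGA of the C/D type, or the ACA box near the 3′ end of the H/ACA type. SNORD123 lies at chr5:9548836-9548905 on the plus strand in SNHG18, SNORD48 and SNORD52 lie at chr6:31835263-31835326 and chr6:31837076-31837142 on the plus strand in SNHG32, and SNORA13 lies at chr5:112161485-112161617 on the plus strand in EPB41L4A-AS1.
SNORD123: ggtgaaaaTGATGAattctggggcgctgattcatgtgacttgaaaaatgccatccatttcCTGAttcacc
SNORD48: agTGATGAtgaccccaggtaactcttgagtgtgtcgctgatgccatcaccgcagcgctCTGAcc
SNORD52: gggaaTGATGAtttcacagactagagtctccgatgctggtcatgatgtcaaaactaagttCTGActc
SNORA13: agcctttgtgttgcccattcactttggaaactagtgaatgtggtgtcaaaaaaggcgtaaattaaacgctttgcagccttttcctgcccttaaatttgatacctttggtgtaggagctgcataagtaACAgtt

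RefSeq placed 22 mature miRNAs in 7 members on the same strand, and 12 of them were in MIR17HG, the host of the miR-17-92 cluster. Both arms of miR-22 and, for MIR17HG, the better-known arm of each of its 6 hairpins are shown with the seed, bases 2 to 8, in capitals, because it is these host transcripts and not the mature miRNAs that were counted. MIR22HG lies on the minus strand of chr17 and MIR17HG on the plus strand of chr13. The seed AAAGUGC was shared by miR-17-5p and miR-20a-5p, and GUGCAAA by miR-19a-3p and miR-19b-3p, while miR-18a-5p, miR-92a-3p and both arms of miR-22 each had a seed of their own among those shown.
hsa-miR-22-3p: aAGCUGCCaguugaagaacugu
hsa-miR-22-5p: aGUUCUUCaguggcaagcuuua
hsa-miR-17-5p: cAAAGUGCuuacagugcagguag
hsa-miR-20a-5p: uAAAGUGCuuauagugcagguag
hsa-miR-19a-3p: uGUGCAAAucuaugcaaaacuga
hsa-miR-19b-3p: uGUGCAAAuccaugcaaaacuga
hsa-miR-18a-5p: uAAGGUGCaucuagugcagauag
hsa-miR-92a-3p: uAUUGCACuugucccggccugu

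A pyrimidine run at the start of the transcript was looked for in the RefSeq promoter table of build GRCh38.p14, which held 39 starts of 36 members. The first 5 transcribed bases on the transcript strand were all C or T in 6 of the 39 starts (15.4%), compared with 1816 of all 35116 starts (5.17%). The 6 genes were SNHG12, SNHG18, SNHG4, SNHG32, SNHG5 and SNHG19, whose windows of 20 bases on each side of the start are shown with the first 5 transcribed bases in capitals. A run of pyrimidines in the listed start is a description of the annotation, and starts used in these cells may differ from it.
SNHG18, plus strand, chr5:9546180-9546219: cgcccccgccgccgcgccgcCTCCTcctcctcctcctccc
SNHG32, plus strand, chr6:31834896-31834935: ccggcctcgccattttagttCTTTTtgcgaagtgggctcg
SNHG12, minus strand, chr1:28581854-28581893: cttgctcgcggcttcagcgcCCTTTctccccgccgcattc
SNHG5, minus strand, chr6:85678714-85678753: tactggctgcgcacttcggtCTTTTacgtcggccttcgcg
SNHG19, minus strand, chr16:2155339-2155378: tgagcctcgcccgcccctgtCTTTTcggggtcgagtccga
SNHG4, plus strand, chr5:139274081-139274120: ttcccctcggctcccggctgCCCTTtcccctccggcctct

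The libraries held 14003780 to 18508113 counts. The 42 members took 1.96% to 2.27% of the counts in the Vector-CM libraries and 1.67% to 2.05% in the FGFBP1-CM libraries, and MALAT1, at 1.22% to 1.67%, was the most counted gene in each of the 6. FGFBP1-CM replicate 1 stood apart from the other libraries on the first principal component of all tested genes (38.1 compared with −18.3 to 4.96, 43.5% of the variance), so results of the members are also given without it where leaving it out changed a call or moved a value by over 1.5 times. Of the stellate cell and fibroblast markers, LRAT had no count and DES had 0 to 4 counts in each library, whereas collagen and vimentin RNA was present. The summed level of the 9 stellate and fibroblast markers was 2753 to 2937 CPM (each count scaled to the size of its library) in Vector-CM and 2230 to 2619 in FGFBP1-CM, most of it VIM. The 10 colorectal markers summed to 217 to 240 CPM and 207 to 223 CPM, nearly all KRT8 and KRT18, with EPCAM at 4 to 12 counts, KRT20 at 0 to 2 and CDX2 at 0 to 3.

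Of the 42 members, 41 had at least 1 count, and SNHG27 had none in any library, where a count of 0 allows up to 3 counts per library. After the filter on low counts 36 members were tested among 16707 genes. The 6 members below the filter were SNHG27, SNHG28 (0 to 2 counts), SNHG25 (0 to 1 counts), SNHG9 (5 to 9 counts), SNHG31 (2 to 16 counts) and H19 (0 to 3 counts), an imprinted RNA of fetal tissues that hosts miR-675. They were not tested in the main fit. When the filter was dropped, SNHG31, whose 8, 2 and 3 counts in Vector-CM and 9, 8 and 16 in FGFBP1-CM did not overlap after scaling, had a log2 fold change of 1.21 (edgeR adjusted p = 0.171), and the adjusted p of the other 4 with a count was 0.68 or higher. SNORD104, in an intron of SNHG25, was counted more often than its host, with 9, 10 and 13 counts in Vector-CM and 15, 11 and 13 in FGFBP1-CM.

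Levels between genes were compared in the deposited FPKM, which divides by gene length. MALAT1 was highest at 1688 ± 186 FPKM (SD, n = 6 libraries), followed by NORAD at 143 ± 6.84, NEAT1 at 109 ± 17.0, GAS5 at 64.0 ± 3.55 and SNHG1 at 48.1 ± 5.16. Then came SNHG29 at 26.3 ± 1.10 and SNHG32 at 25.7 ± 2.38, and the lowest tested member was SNHG22 at 0.26 ± 0.14. Mean FPKM was at least 10 in 15 tested members, 1 to 10 in 17 and under 1 in 4. The ranges over the 6 libraries overlapped in 34 of the 41 neighbouring pairs of this order. The 7 separate steps were those below MALAT1, NEAT1, GAS5, SNHG1, SNHG32, SNHG3 and MIR17HG, although NORAD was above NEAT1 in each of the 6 libraries, where their pooled ranges touched. That order depends on gene length, since NEAT1 was divided by 22767 bases and NORAD by 5401. Without division by length NEAT1 was higher, at a mean of 2625 CPM in Vector-CM and 2341 in FGFBP1-CM, compared with 787 and 764 for NORAD. The FPKM of some genes rests on a long gene model, because the length implied by count and FPKM was 7.16 times the GENCODE 29 exon length for SNHG8, 4.54 times for PVT1, 4.49 times for SNHG5 and 4.45 times for DANCR, and was within 10% of it for 26 of the 41 counted members. It was also 2.83 times for SNHG14, 2.82 times for SNHG17 and 2.80 times for SNHG10. For SNHG29 it was 1.91 times and for SNHG1 1.06 times, so the distance between SNHG1 and SNHG29 depends on the lengths used.

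**Figure D1:**
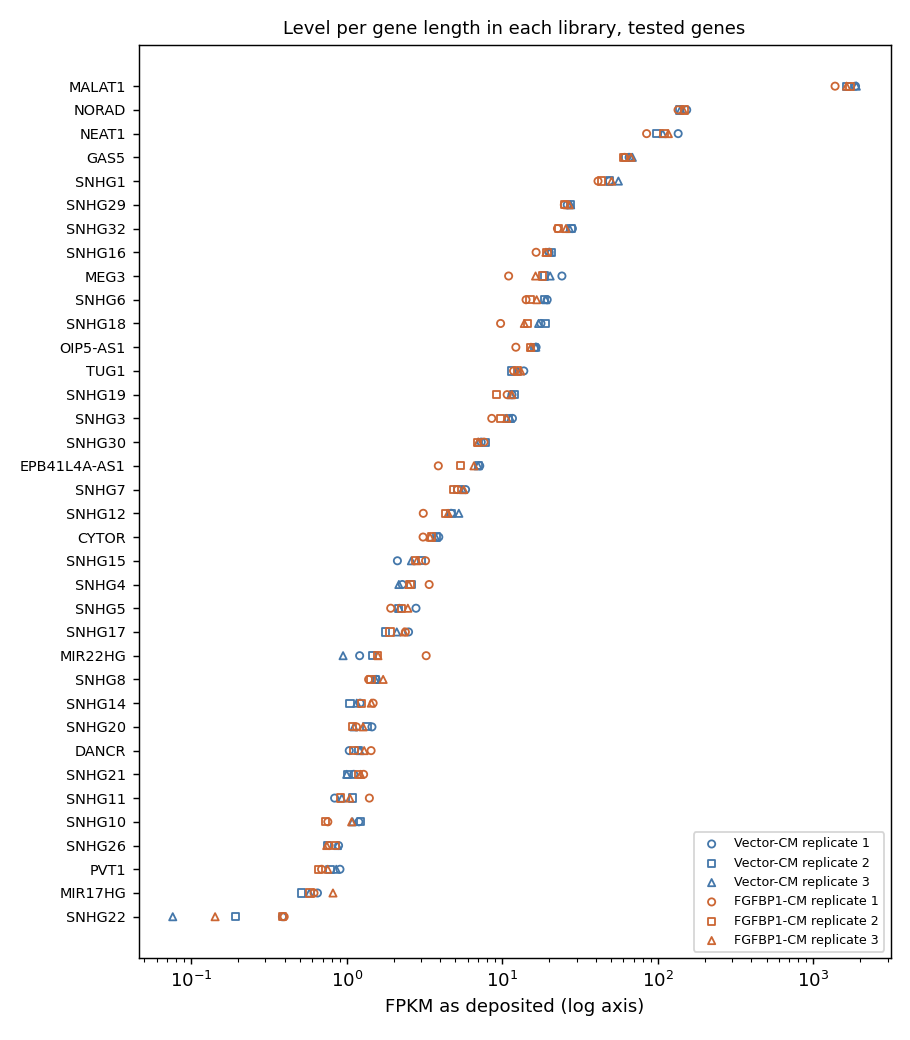
Deposited FPKM (log axis) of each of the 36 tested genes in each of the 6 libraries, blue for Vector-CM and orange for FGFBP1-CM, with the marker shape giving the replicate. MALAT1 lies far above the rest in every library, SNHG22 has the lowest mean, and most neighbouring genes overlap in range.

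No member passed the adjusted threshold of 0.05 in edgeR's quasi-likelihood test, adjusted by Benjamini-Hochberg over all genes tested, at which 20 genes of 16707 (0.12%) were called, 9 higher (0.0539%) and 11 lower (0.0658%) in FGFBP1-CM. At an unadjusted p under 0.05, the threshold of the study's methods, 16 of the 36 tested members were called, compared with 21.7% of all genes. Of these, 14 were lower in FGFBP1-CM (38.9% of the members and 10.7% of all genes) and 2 were higher (5.56% of the members and 11.1% of all genes). Over the tested members, 26 log2 fold changes were below 0 and 10 above, and their median was −0.13, compared with 0.0032 over all genes. DESeq2 called 2 members at an adjusted p under 0.05, SNHG18 and EPB41L4A-AS1, both lower, where it called 616 of the 10876 genes to which it gave an adjusted p (5.66%). At an adjusted p under 0.10 in edgeR, 4 members were called, SNHG18, SNHG6, MEG3 and SNHG32, all lower, compared with 5.58% of all genes in either direction and 2.6% lower. Without FGFBP1-CM replicate 1, SNHG18 alone stayed under 0.10 (0.0549), with SNHG6 at 0.139, MEG3 at 0.107 and SNHG32 at 0.200. Without any 1 of the Vector-CM libraries no member was under 0.10, and without FGFBP1-CM replicate 2 or 3 there were 8 or 12. The count over all genes moved as well. Without FGFBP1-CM replicate 1 it was 195 higher and 132 lower of 17094. It was 1014 and 978 of 17133 without replicate 2, and 800 and 552 of 17155 without replicate 3. Without Vector-CM replicates 1, 2 and 3 it was 27 and 10, 1 and 4, and 1 and 4.

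The groups did not overlap in 13 members that were lower in FGFBP1-CM (36.1%, compared with 13.2% of all genes) and in 3 tested members that were higher (8.33%, compared with 12.8%), out of 26% of all genes in both directions. FGFBP1-CM replicate 1 was the lowest of the 6 libraries for 19 of the 36 tested members (52.8%) and for 26.3% of all tested genes. It was the lowest for 12 of the 14 members that were lower at an unadjusted p under 0.05, the exceptions being PVT1 and SNHG10, where FGFBP1-CM replicate 2 was lowest. Without FGFBP1-CM replicate 1, 9 members were lower at an unadjusted p under 0.05 (25% of the members and 6.91% of all genes), 1 was higher, and the median log2 fold change of the members was −0.09. Without Vector-CM replicate 3, 9 were lower as well (25% of the members and 6.96% of all genes). All 14 of the lower members kept a negative log2 fold change in each of the 16 alternative fits. The summed level of 8 hepatocyte markers, led by SERPINA1, was 39.9 to 42.8 CPM in Vector-CM and 18.1 to 27.9 CPM in FGFBP1-CM without overlap, with ALB at 45 to 65 and 7 to 16 counts, and the part of this shift in the members' values was not tested. All libraries were of the LX-2 line, so these markers give no number of hepatocytes. In bulk RNA, fewer cells that express a gene and less of its RNA per cell cannot be told apart.

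**Figure D2:**
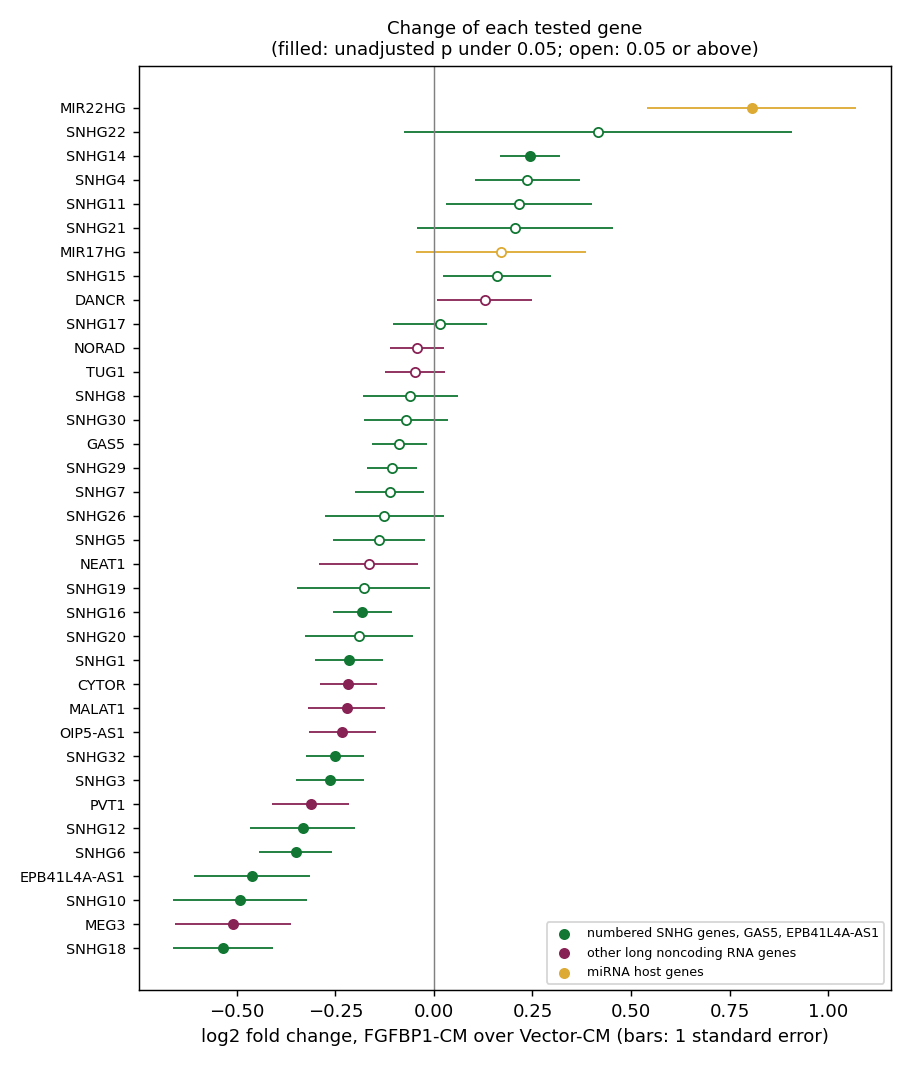
Log2 fold change of FGFBP1-CM over Vector-CM for the 36 tested genes, with bars of 1 standard error, coloured by kind of gene, filled where the unadjusted p was under 0.05. Of the 16 filled points 14 lie below 0, and MIR22HG and SNHG14 lie above.

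The numbered SNHG genes with GAS5 and EPB41L4A-AS1 made up 25 tested genes. DANCR, which hosts SNORA26, is described with the other long noncoding RNAs. Of the 25, 9 were lower (36%, compared with 10.7% of all genes) and 1 was higher (4%, compared with 11.1%) at an unadjusted p under 0.05, with a median log2 fold change of −0.13, and without FGFBP1-CM replicate 1 or Vector-CM replicate 3 the lower genes numbered 6. SNHG18, a host of 1 intronic C/D snoRNA on the short arm of chromosome 5 (chr5:9546200-9550609, plus strand, GENCODE 29), had the lowest p. Its level was 34.7, 37.5 and 34.2 CPM in Vector-CM replicates 1 to 3 and 18.6, 28.3 and 26.9 CPM in FGFBP1-CM. Each FGFBP1-CM library lay below each Vector-CM library, replicate 1 the furthest. FGFBP1-CM differed from Vector-CM by −0.54 ± 0.127 (SE) on the log2 scale, a ratio of 0.69, with a 95% interval of −0.81 to −0.26 and an edgeR adjusted p of 0.0658, and it was −0.36 with an adjusted p of 0.0549 without FGFBP1-CM replicate 1. Its snoRNA SNORD123, whose sequence is given above, had 12, 8 and 17 counts in Vector-CM and 6, 13 and 13 in FGFBP1-CM, and the groups overlapped. Exons of SNHG18 overlapped those of no other annotated gene.

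SNHG6, the host of SNORD87, had 24.3, 23.6 and 24.3 CPM in Vector-CM and 17.3, 18.8 and 20.6 CPM in FGFBP1-CM. The Vector-CM libraries were nearly equal and all 3 FGFBP1-CM libraries lay below them. This was a log2 fold change of −0.35 ± 0.0921 with an adjusted p of 0.078, and it was −0.29 without FGFBP1-CM replicate 1. Its exons overlap those of MCMDC2 on the opposite strand over 365 bases, and since the strand setting of the counting was not stated, reads in that stretch cannot be assigned to either gene.

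SNHG32, the host of SNORD48 and SNORD52 in the class III region of the major histocompatibility complex, was listed in GENCODE 29 as the protein-coding gene C6orf48. It had 51.1, 50.4 and 49.9 CPM in Vector-CM and 39.8, 41.7 and 45.9 CPM in FGFBP1-CM. The groups did not overlap, and the Vector-CM libraries were again close together. SNHG32 had a log2 fold change of −0.25 ± 0.0737 with an adjusted p of 0.0947, and it was −0.20 without FGFBP1-CM replicate 1. Exons of SNHG32 share 418 bases with AL671762.1 on the same strand, so its counts are uncertain in that stretch. Neither SNORD48 nor SNORD52 had a count of its own in any library. They overlap exons of SNHG32 by 39 and 67 bases, and how shared reads were assigned is not stated, so this gives no level for either.

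EPB41L4A-AS1, the host of SNORA13, lies antisense to EPB41L4A. It had 28.1, 27.9 and 28.0 CPM in Vector-CM and 14.8, 21.0 and 25.5 CPM in FGFBP1-CM. All 3 FGFBP1-CM libraries were lower, with replicate 1 lowest, and their spread was far wider than that of the Vector-CM libraries. Its log2 fold change was −0.46 ± 0.146, with an adjusted p of 0.109 in edgeR and 0.0478 in DESeq2, and it was −0.27 without FGFBP1-CM replicate 1. Exons of the pair overlap on opposite strands over 1659 bases, but EPB41L4A itself had only 0 to 2 counts in each library. SNORA13 had 6, 3 and 9 counts in Vector-CM and 2, 7 and 3 in FGFBP1-CM, and the groups overlapped.

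**Figure D3:**
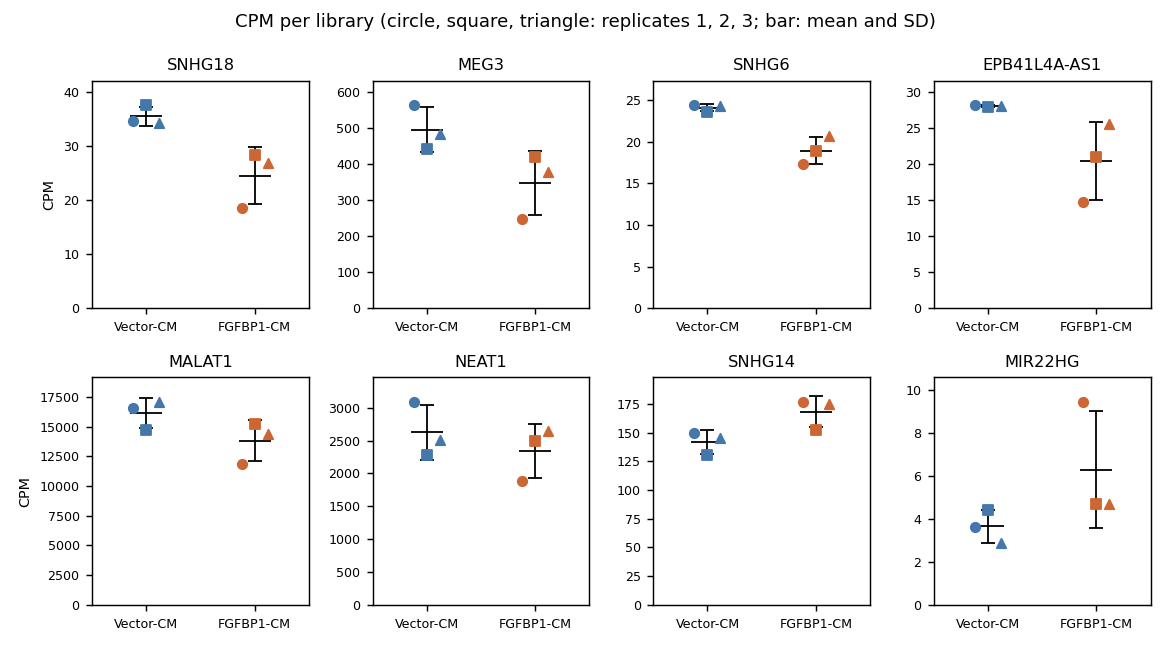
CPM of 8 genes in each library, from 0, with circle, square and triangle for replicates 1, 2 and 3 and a bar for the mean with its SD. FGFBP1-CM replicate 1 is the lowest point for SNHG18, MEG3, SNHG6, EPB41L4A-AS1, MALAT1 and NEAT1, and the highest for SNHG14 and MIR22HG.

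SNHG14 was the host that differed in the other direction. It is the long paternally expressed transcript of the Prader-Willi region on chromosome 15, carries the SNORD116 and SNORD115 arrays and runs antisense to UBE3A. It had 150, 130 and 146 CPM in Vector-CM and 177, 152 and 175 CPM in FGFBP1-CM. The groups were separate, but FGFBP1-CM replicate 2 lay only just above Vector-CM replicate 1. Its log2 fold change was 0.24 ± 0.0767 with an adjusted p of 0.106, and it was 0.21 without FGFBP1-CM replicate 1.

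The other hosts with an unadjusted p under 0.05 were SNHG3 (log2 fold change −0.26), SNHG10 (−0.49), SNHG12 (−0.33), SNHG1 (−0.21) and SNHG16 (−0.18), and their adjusted p in edgeR ran from 0.119 for SNHG3 to 0.185 for SNHG16. SNHG3 hosts both copies of the U17 snoRNA, SNORA73A and SNORA73B, and SNHG10 hosts the Cajal body RNA SCARNA13. SNHG1 hosts 8 named C/D snoRNAs, among them SNORD25 to SNORD31, and its groups overlapped. Without FGFBP1-CM replicate 1 the values were −0.17 for SNHG3, −0.39 for SNHG10, −0.17 for SNHG12, −0.14 for SNHG1 and −0.098 for SNHG16, and the unadjusted p of the last 3 was 0.097, 0.0919 and 0.14. Without Vector-CM replicate 3 these 3 also had an unadjusted p above 0.05, as did SNHG1 without FGFBP1-CM replicate 2 and SNHG16 without Vector-CM replicate 2. SNHG3 shares 242 exon bases with RCC1 on the same strand, and SNHG10 and SNHG16 overlap GLRX5 and AC015802.6 on the opposite strand over 391 and 1639 bases, so their counts are uncertain in those stretches.

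GAS5, named for its level in growth-arrested cells and known as a decoy of the glucocorticoid receptor, was the most abundant snoRNA host per length. It had 318, 302 and 340 CPM in Vector-CM and 289, 291 and 324 CPM in FGFBP1-CM. The groups overlapped, with FGFBP1-CM replicate 3 above 2 of the Vector-CM libraries. The log2 fold change was −0.09 with a 95% interval of −0.24 to 0.06.

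SNHG1, second among the hosts by deposited FPKM, had 195, 196 and 227 CPM in Vector-CM and 160, 173 and 199 CPM in FGFBP1-CM. Vector-CM replicate 3 was highest and FGFBP1-CM replicate 3 lay above the other Vector-CM libraries. The log2 fold change was −0.21 with a 95% interval of −0.40 to −0.03. The largest positive value among the hosts was 0.42 for SNHG22, on 0.57 ± 0.41 CPM in Vector-CM, with an interval of −0.65 to 1.48. The value of SNHG4, 0.24, is uncertain, since it shares 626 exon bases with MATR3 on the same strand.

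The remaining hosts each had an unadjusted p of at least 0.05. Below 0 were SNHG20 (log2 fold change −0.19), SNHG19 (−0.18), SNHG5 (−0.14), SNHG26 (−0.13), SNHG7 (−0.11), SNHG29 (−0.11), SNHG30 (−0.07) and SNHG8 (−0.06). Above 0 were SNHG11 (0.22), SNHG21 (0.21), SNHG15 (0.16) and SNHG17 (0.02). The groups did not overlap for SNHG19, the host of SNORD60, or for SNHG21, the host of SCARNA15. Counts of SNHG21 are uncertain, since it shares 768 of its 1053 exon bases with AC105339.2 on the same strand. SNHG29, next after SNHG1 by mean FPKM and the carrier of SNORD49A, SNORD49B and SNORD65, had an interval of −0.24 to 0.03. SNHG5, the host of SNORD50A and SNORD50B, had one of −0.39 to 0.11, and SNHG17, which carries the SNORA71 family, one of −0.24 to 0.27. SNHG7, the host of SNORA17A and SNORA17B, overlaps FAM69B on the opposite strand over 1094 exon bases, and its value was −0.0060 when GC content and length were corrected for. Of the 6 genes with a pyrimidine run at the listed start, SNHG18, SNHG12 and SNHG32 had an unadjusted p under 0.05, whereas SNHG19, SNHG5 and SNHG4 did not. With FGFBP1-CM replicate 1 left out, the values were 0.094 for SNHG4, 0.035 for SNHG11, −0.034 for SNHG5, 0.015 for SNHG8, −0.034 for SNHG17, 0.19 for SNHG22 and −0.056 for GAS5.

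**Figure D4:**
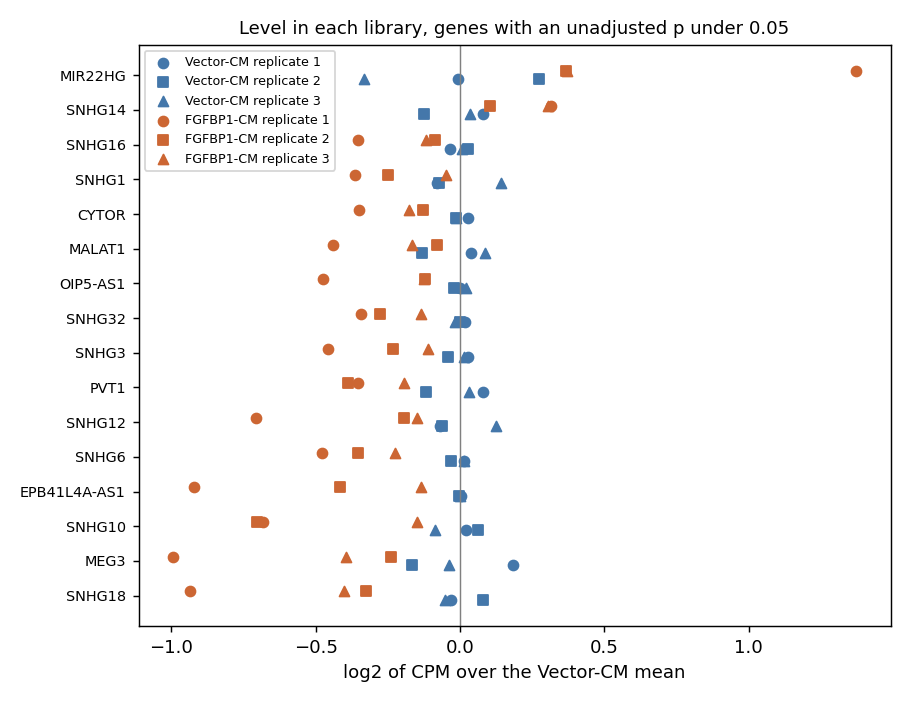
Log2 of the CPM in each library over the Vector-CM mean, for the 16 genes with an unadjusted p under 0.05, with colour for the medium and shape for the replicate. FGFBP1-CM replicate 1 lies furthest left for 12 of the 14 genes that are lower, and the FGFBP1-CM libraries of MIR22HG and SNHG14 lie to the right of all Vector-CM libraries.

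Among the long noncoding RNA genes that are not numbered snoRNA hosts, 9 were tested. At an unadjusted p under 0.05, 5 were lower (55.6%, compared with 10.7% of all genes) and none was higher (11.1% of all genes), and the median log2 fold change was −0.22. Without FGFBP1-CM replicate 1 the lower genes numbered 3 and the median was −0.12, since MALAT1 and OIP5-AS1 no longer had a p under 0.05, and without Vector-CM replicate 3 they also numbered 3. MEG3 is transcribed from the maternal allele of the DLK1-DIO3 domain on chromosome 14 and has been studied in stellate cell activation. It had 564, 442 and 483 CPM in Vector-CM and 249, 420 and 378 CPM in FGFBP1-CM. The groups did not overlap, FGFBP1-CM replicate 1 was far below the rest, and FGFBP1-CM replicate 2 was close to Vector-CM replicate 2. MEG3 had a log2 fold change of −0.51 ± 0.148, a ratio of 0.703, with an adjusted p of 0.0923 in edgeR and 0.181 in DESeq2. Without FGFBP1-CM replicate 1 it was −0.31. DLK1, the paternally expressed gene of the same domain, had 0 to 2 counts in each library.

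PVT1 lies beside MYC on chromosome 8. It had 22.7, 19.7 and 21.9 CPM in Vector-CM and 16.8, 16.4 and 18.7 CPM in FGFBP1-CM. The groups did not overlap and no single FGFBP1-CM library stood out. PVT1 had a log2 fold change of −0.31 ± 0.0972 with an adjusted p of 0.105, and it was −0.29 without FGFBP1-CM replicate 1. MYC had 38.9, 40.0 and 39.5 CPM in Vector-CM and 52.9, 40.9 and 44.3 CPM in FGFBP1-CM, where replicate 1 stood highest. Its log2 fold change was 0.22 with an adjusted p of 0.179, so the neighbours differed in opposite directions, without passing the threshold. For MYC the unadjusted edgeR p was not under 0.05 without FGFBP1-CM replicate 1, nor without Vector-CM replicate 1 or 3.

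MALAT1, the most abundant member, had 16556, 14691 and 17088 CPM in Vector-CM and 11882, 15227 and 14346 CPM in FGFBP1-CM. The groups overlapped, because FGFBP1-CM replicate 2 exceeded Vector-CM replicate 2. The log2 fold change was −0.22 ± 0.0976 with an adjusted p of 0.207, and it was −0.12 without FGFBP1-CM replicate 1 (unadjusted p = 0.177). Without Vector-CM replicate 1 or 3 its unadjusted p was also above 0.05. Its RNA ends in a triple helix and not in a long poly(A) tail, and the study's methods name both poly(A) selection and ribosomal RNA depletion for these libraries.

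NEAT1, from the neighbouring locus on chromosome 11, had 3089, 2279 and 2508 CPM in Vector-CM and 1882, 2496 and 2645 CPM in FGFBP1-CM. The groups overlapped, and the highest and lowest libraries were the replicates 1 of the 2 media. The log2 fold change was −0.17 with a 95% interval of −0.44 to 0.10, and it was −0.03 without FGFBP1-CM replicate 1. Of 14 tested rows for paraspeckle proteins, which gather on NEAT1, 2 were higher and 3 were lower at an unadjusted p under 0.05 (14.3% and 21.4%, compared with 11.1% and 10.7% of all genes), with a median of 0.06. None passed the adjusted threshold in edgeR, and DESeq2 called 3, SFPQ, RBM14 and DAZAP1. Leaving out 1 library gave 1 to 4 higher and 2 to 4 lower. They included SFPQ, a core paraspeckle protein, at 0.36 (adjusted p = 0.0992), DAZAP1 at −0.32 (0.0568) and RBM14 at −0.41 (0.0879).

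NORAD, second in level per length, had 832, 756 and 773 CPM in Vector-CM and 711, 799 and 782 CPM in FGFBP1-CM. The groups overlapped. NORAD differed by −0.04 on the log2 scale with a 95% interval of −0.19 to 0.11, and TUG1 was similar at −0.05 with an interval of −0.21 to 0.12. CYTOR, a regulator of the cytoskeleton, differed by −0.22, and OIP5-AS1, which binds miR-7, by −0.23, with adjusted p of 0.122 and 0.149. They differed by −0.15 and −0.12 without FGFBP1-CM replicate 1, with an unadjusted p of 0.0369 for CYTOR and 0.0667 for OIP5-AS1, whose p was also above 0.05 without Vector-CM replicate 3. NORAD and TUG1 were then at 0.0087 and 0.0038. DANCR, known for holding back differentiation, differed by 0.13 with an interval of −0.13 to 0.39, and by 0.054 without FGFBP1-CM replicate 1.

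Both tested miRNA hosts had a positive log2 fold change. MIR22HG, the stress-responsive host of the miR-22 arms shown above, had 3.63, 4.41 and 2.90 CPM in Vector-CM and 9.44, 4.71 and 4.71 CPM in FGFBP1-CM, on 65, 61 and 43 and on 179, 75 and 77 counts. The groups did not overlap, but replicates 2 and 3 of FGFBP1-CM lay just above Vector-CM replicate 2 and only replicate 1 stood well above. MIR22HG had a log2 fold change of 0.81 ± 0.266, a ratio of 1.75, with an adjusted p of 0.118, and it was 0.38 without FGFBP1-CM replicate 1, with an unadjusted p of 0.0627 in edgeR. MIR17HG differed by 0.17 with an interval of −0.29 to 0.63. Mature miRNAs were not measured by these libraries.

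The snoRNAs themselves were hardly counted. GENCODE 29 places 141 snoRNA genes in 29 members, 92 of them clear of host exons. None of these was in GAS5, so the 11 snoRNA genes that RefSeq lists there are not among them. All 141 had a row in the table and 17 had a count in any library. The 49 that overlap a host exon were all at 0 in every library. How reads that fall on both a snoRNA and a host exon were assigned is not stated, so a count of 0 there gives no level. The intronic SNORA71B in SNHG17 had 17, 12 and 20 counts in Vector-CM and 28, 10 and 19 in FGFBP1-CM, and SNORA73B in SNHG3 had 15, 12 and 14 and then 17, 14 and 15. The groups overlapped for both. The host rows count reads on host exons and give no level for the snoRNAs.

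The members' shift was set beside other kinds of gene. Of 2053 other tested genes that GENCODE 29 classes as long noncoding, 145 were higher (7.06%) and 148 lower (7.21%) at an unadjusted p under 0.05. Their median log2 fold change was −0.01. A share past a p-value cut also depends on how well a gene is counted, and levels were not matched between these sets. With a filter of a mean of at least 1 CPM, 1398 of the other long noncoding genes and 35 members were tested. At an unadjusted p under 0.05, 8.87% and 37.1% of them were then lower. The most negative 25% of log2 fold changes reached up to −0.26 in the other long noncoding genes and −0.25 in the members. Of 12895 tested protein-coding genes, 1623 were higher (12.6%) and 1471 lower (11.4%), with a median of 0.01. Of 24 tested snoRNA rows in the whole table, 1 was higher and 1 lower (4.17% each). The shares higher and lower were 11.1% and 10.7% over all genes, and 5.56% and 38.9% over the members. When the counts were corrected for the GC content and length of each gene, 15 members were lower and 2 were higher at an unadjusted p under 0.05 (10.7% and 10.8% of all genes), and the values of OIP5-AS1 and MALAT1 were −0.33 and −0.30.

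**Figure D5:**
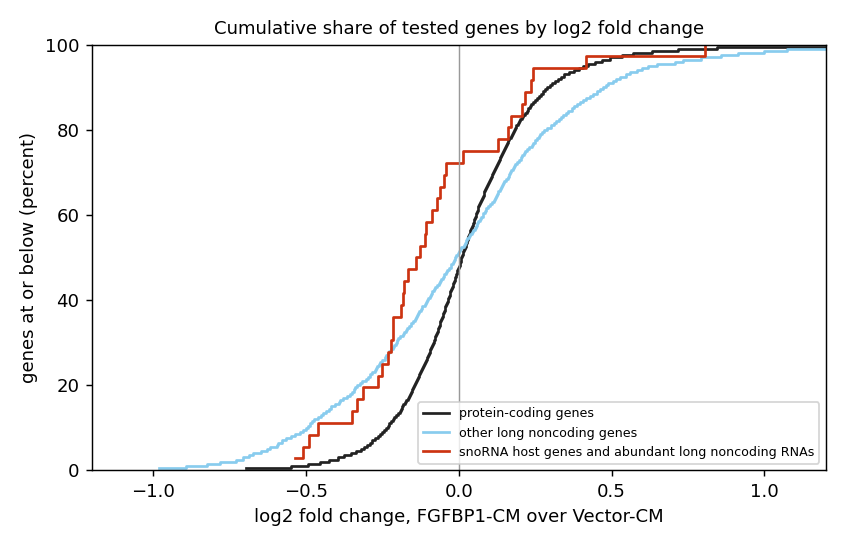
Share of tested genes at or below each log2 fold change, for protein-coding genes, other long noncoding genes and the 36 tested members. The members' curve lies left of that of protein-coding genes through most of the range below 0, with a median of −0.13 compared with 0.01. The curve of other long noncoding genes reaches 10% at −0.50 and 25% at −0.26, and its median is −0.01. That of the members reaches 8.33% at −0.49 and 25% at −0.25. Below −0.26 the members do not lie left of other long noncoding genes.

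Protein-coding genes that also host snoRNAs, many of them for ribosomal proteins, gave 43 tested genes, 5 higher and 6 lower at an unadjusted p under 0.05 (11.6% and 14%, compared with 11.1% and 10.7% of all genes), with a median of −0.08. Leaving out 1 library gave 3 to 5 higher and 3 to 13 lower, with the most lower genes without Vector-CM replicate 1, and a median of −0.12 to −0.05. Among them NCL, which encodes nucleolin, differed by 0.25 (edgeR adjusted p = 0.0948), PPAN by 0.77 (0.0961) and WDR43 by 0.28 (0.122), each without overlap. PPAN was low, at a mean of 1.45 CPM in Vector-CM and 2.47 in FGFBP1-CM. EIF4A1, a translation initiation helicase, differed by −0.48 (0.111). Its level was 12.5 ± 2.31 CPM in Vector-CM and 9.04 ± 1.49 in FGFBP1-CM, and its groups overlapped. The proteins that assemble on snoRNAs and the factors that load them gave 20 tested genes, 6 higher (30%, compared with 11.1% of all genes) and none lower (10.7% of all genes), with a median of 0.11. With FGFBP1-CM replicate 1 left out, this count was 1 higher and the median 0.061, and without Vector-CM replicates 1, 2 and 3 it was 3, 2 and 3. These included RPAP3 at 0.25, TGS1 at 0.43 and NOP56, a box C/D core protein and itself a snoRNA host, at 0.20. Of 15 nonsense-mediated decay factors, 7 were higher (46.7%, compared with 11.1% of all genes) and 1 lower (6.67%, compared with 10.7%), with a median of 0.20, led by the exon junction protein RBM8A at 0.40 (adjusted p = 0.0648). The median was 0.11 with 3 higher without Vector-CM replicate 2, 0.13 with 6 higher without FGFBP1-CM replicate 1, and 4 were higher without Vector-CM replicate 3 or FGFBP1-CM replicate 3. None of the genes in these 3 lists passed the adjusted threshold of 0.05 in edgeR, DESeq2 called NCL and RBM8A, and any link to the level of the hosts was not tested.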

How the data were processed

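Counts per gene were deposited by the authors for 6 libraries, made per the labels and methods with HISAT2 2.0.5 and featureCounts 1.5.0-p3, with FPKM deposited beside them, which divides the count by gene length and library total. The processing notes name hg18, whereas 96.3% of the Ensembl identifiers were found in GENCODE 29 (GRCh38), which gave all gene coordinates, and RefSeq gave starts and miRNAs. The annotation release and strand setting are not given in the sources used here. The table also holds the authors' own fold changes and p-values, which were not used. The members, lists and tests were chosen with earlier results of these data known.

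Counts were filtered with filterByExpr, scaled by TMM and fitted with edgeR 4.0.16 in R 4.3.3 (quasi-likelihood F-test, group only), with Benjamini-Hochberg adjustment over 16707 genes and a two-sided threshold of 0.05. CPM uses the scaled library size, SE is the log2 fold change over the root of F, and intervals use the prior (9.32) plus residual degrees of freedom. Values were given in every library for the 8 tested members with the lowest p and the 5 with the highest FPKM, other members by role or range, and up to 4 genes of lowest p from each other list. All pairs of libraries, within and between groups, differed beyond sampling noise (lowest chi-square per degree of freedom over all pairs 2.62), and the labels give no batch. Counting error only is covered by the limit for a count of 0. Alternatives used DESeq2 1.42.0, limma 3.58.1 on log2 FPKM, other scalings, filters and thresholds, a replicate block, a loess correction for GC and length, and leaving out each library. The scripts were tested on simulated data.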

Additional observations from a re-analysis of the deposited data

How the results depend on the processing

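The number of genes past the threshold depended strongly on the setting. Against 20 genes (9 higher, 11 lower), there were 38 with RLE scaling (24 higher, 14 lower), 17 with library size alone (9 higher, 8 lower), 1382 without the filter (833 higher, 549 lower), 11 with a mean of at least 1 CPM (4 higher, 7 lower), 616 with DESeq2 (334 higher, 282 lower), 1 with limma on FPKM with a pseudocount of 1 and likewise 1 with 0.1, 25 after GC and length correction, 3630 at an unadjusted p and 932 at an adjusted p under 0.10. Leaving out 1 library gave 4 to 883 genes, with 6, 4 and 4 without Vector-CM replicates 1, 2 and 3 and 72, 883 and 402 without FGFBP1-CM replicates 1, 2 and 3. Without the filter edgeR's estimate of prior degrees of freedom became infinite, compared with 9.32.

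No member was called in the main test, but 7 were without the filter (2 higher, SNHG14 and MIR22HG, and 5 lower), 2 with DESeq2, 4 at an adjusted p under 0.10 and 16 at an unadjusted p. Leaving out 1 library gave 0 to 4 called members, 3 without FGFBP1-CM replicate 2 (SNHG18, MEG3 and SNHG14) and 4 without FGFBP1-CM replicate 3 (EPB41L4A-AS1, SNHG18, SNHG6 and SNHG10). The 14 members lower at an unadjusted p were 8 with limma at either pseudocount, and 9 to 14 when 1 library was left out, 9 without Vector-CM replicate 3 and 9 without FGFBP1-CM replicate 1. The cause of these changes was not tested.

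Replicate numbers are shared by the groups, but the deviations of same-numbered libraries correlated by only −0.09, −0.03 and 0.12 over 16531 genes, so the numbers were not taken as pairs. With the replicate block 90 genes and 0 members were called, and with the block and GC and length correction together 105 genes and 1 member, OIP5-AS1. Of 567 single log2 fold changes under the alternatives, 542 kept direction and side of the threshold, 17 kept direction and passed it, and 8 turned sign when a library was left out, in the 4 members closest to 0, which ran from −0.16 to 0.015 for SNHG8, −0.10 to 0.15 for SNHG17, −0.076 to 0.0087 for NORAD and −0.11 to 0.014 for TUG1. Members of a few counts, such as SNHG22, were limited by depth.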
